A study of Mus musculus with 30 samples.

Results

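Heat shock proteins and their partner chaperones were followed in mouse embryonic stem (ES) cells and in the neural aggregates made from them. The members were the genes whose symbols begin with Hsp followed by a family letter or number, the Dnaja, Dnajb and Dnajc genes, and the Cct genes. A gene was included where at least 1 probe set on the 3 chips named it alone, and the proteoglycan gene Hspg2 was left out. This gave 78 genes with 172 probe sets, of 15964 genes named alone on the chips. Of the 78, 33 had 1 probe set and 45 had several, at most 7. Symbols are not functions: Hspb11 is better known as an intraflagellar transport protein of cilia, and Hspbap1 and Hspbp1 bind heat shock proteins without being chaperones of those families. Hsp90ab1, which encodes the constitutive cytosolic Hsp90, had no probe set naming it alone and was not analysed here. Neither was Dnajc19, whose 3 probe sets also name its pseudogene.

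The samples came from a 129-derived Sox1-GFP line, in which green fluorescent protein reports Sox1, a gene of the early neuroectoderm. ES cells were reaggregated in serum-free floating culture (SFEB) and sorted by flow cytometry. The Sox1-positive arm held 1 sample each of days 3, 4 and 5 sorted as Sox1-positive. A second arm held 4 other aggregate samples, which were day 1 with no sort given, day 2 E-cadherin-negative, day 2 E-cadherin-positive and day 3 Sox1-negative. The third arm held 3 ES samples sorted as E-cadherin-positive. All 10 samples carry the same reporter allele and come from the same line, with no unmodified line beside them. The protocol text lists the medium as with or without fetal calf serum, and which dishes had it is not given in the sources used here.

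Each sample was hybridised to the U74Av2, U74Bv2 and U74Cv2 chips, 30 arrays in all, and each probe set had a deposited intensity on a linear scale, with a median per array of 176 to 277. Levels are intensities, and differences are on the log2(intensity + 16) scale, which understates changes of dim genes. Nothing in the labels says that the ES samples were separate cultures, so the p-values rest on a spread that may be technical. The Sox1-positive samples differ in day, and their SD includes that. Markers ran with the labels: all 11 neural progenitor genes tested were higher and 11 of 12 pluripotency genes lower in Sox1-positive than in ES cells (limma adjusted p under 0.05). None of 7 mesoderm and endoderm and none of 5 fibroblast genes passed. Of 8 neuronal genes 3 were higher. Actin signal from the 3′ end over that from the 5′ end, which grows as RNA degrades, was 1.64 to 1.85 in ES 3 and 1.33 to 1.44 on day 5. It was 1.23 to 1.33 for day 2 E-cadherin-negative cells, and the remaining 7 samples had 0.939 to 1.25.

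Chaperones bind unfolded or unstable proteins and let them fold, refold or be degraded. Hsp70 proteins do this in cycles of ATP hydrolysis that are started by J-domain proteins, the Dnaj families, and reset by nucleotide exchange factors such as the Hsp110 proteins. Hsp90 acts late on kinases and receptors, small heat shock proteins hold clients without ATP, and the Cct chaperonin folds actin and tubulin in a closed ring. The cytosol, the endoplasmic reticulum (ER) and the mitochondrion each have their own Hsp70 and J-domain proteins. Cytosolic stress genes are driven by heat shock factor at heat shock elements, and ER chaperones by the unfolded protein response at ER stress response elements. ES cells are known for high constitutive chaperone levels. By known location, 49 members were cytosolic or nuclear, 15 of the ER, 9 mitochondrial and 5 fell in none of these classes.

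Hspa1a and Hspa1b, the neighbouring stress-inducible Hsp70 genes, varied most between samples, and the sequences before their starts are much alike. In the RefSeq annotation of GRCm38.p6 the 250 bases upstream of the start are chr17:34972157-34972406 for Hspa1a and chr17:34959239-34959488 for Hspa1b, both on the minus strand. They are identical at 247 of 250 positions (98.8%), and capitals mark the 3 that differ.
Hspa1a: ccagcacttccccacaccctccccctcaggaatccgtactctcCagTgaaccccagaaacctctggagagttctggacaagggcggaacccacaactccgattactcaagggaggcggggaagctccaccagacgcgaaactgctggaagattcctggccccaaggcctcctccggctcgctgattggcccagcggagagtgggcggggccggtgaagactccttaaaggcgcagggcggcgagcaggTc
Hspa1b: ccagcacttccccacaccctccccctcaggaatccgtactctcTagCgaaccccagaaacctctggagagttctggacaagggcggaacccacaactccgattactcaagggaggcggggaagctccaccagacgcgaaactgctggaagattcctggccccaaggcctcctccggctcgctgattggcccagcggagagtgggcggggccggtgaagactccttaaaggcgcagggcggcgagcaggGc
The transcript and probe sequences were not compared here. Signals of the 2 transcripts on these probe sets may not be separable, and the gene names on their values are uncertain. Neither upstream sequence, nor the first 50 bases of the transcripts, holds the heat shock element searched for here (GAANNTTCNNGAA or its reverse complement TTCNNGAANNTTC), which says only that these letters are not in this window.

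The sequences of 3 ER members are shown for the other element, because it was found in 3 of the 12 ER members in the promoter table. Capitals mark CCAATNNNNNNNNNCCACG, or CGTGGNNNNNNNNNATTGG where it lies on the opposite strand. The windows are chr2:34771840-34772089 on the plus strand for Hspa5, chr10:86705445-86705694 on the minus strand for Hsp90b1 and chr14:118937682-118937931 on the plus strand for Dnajc3.
Hspa5: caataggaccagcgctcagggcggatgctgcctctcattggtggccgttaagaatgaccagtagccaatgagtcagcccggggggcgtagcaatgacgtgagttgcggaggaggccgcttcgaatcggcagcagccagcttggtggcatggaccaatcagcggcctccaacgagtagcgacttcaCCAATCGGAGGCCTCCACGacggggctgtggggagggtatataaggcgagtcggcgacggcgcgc
Hsp90b1: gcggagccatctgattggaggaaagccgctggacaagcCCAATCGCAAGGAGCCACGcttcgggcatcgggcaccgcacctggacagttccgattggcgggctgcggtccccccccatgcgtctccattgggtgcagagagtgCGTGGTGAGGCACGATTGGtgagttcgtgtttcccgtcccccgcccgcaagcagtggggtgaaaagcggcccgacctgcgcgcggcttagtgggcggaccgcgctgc
Dnajc3: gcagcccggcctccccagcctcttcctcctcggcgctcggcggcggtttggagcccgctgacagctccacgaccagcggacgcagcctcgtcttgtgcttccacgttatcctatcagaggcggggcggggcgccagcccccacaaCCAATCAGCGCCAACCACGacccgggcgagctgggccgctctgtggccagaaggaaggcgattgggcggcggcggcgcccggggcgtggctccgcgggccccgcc
The first base of the element lies 65 bases before the start in Hspa5, 212 and 107 bases before it in Hsp90b1 and 105 in Dnajc3. Among all 27025 genes listed, 0.137% hold this element between 250 bases before and 50 after the start, as do 0.142% of the 12681 named alone on the chips. The heat shock element, searched in the same window on both strands, was in 4 of the 65 members found in the table (Dnajb6, Hspd1, Hspe1 and Hsph1), against 0.552% of the 12681 chip genes. The matches of Hspd1 and Hspe1 lie in the stretch that these divergently transcribed genes share. Such matches describe letters and are not shown to be used in these cells.

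Hspa1a and Hspa1b were high in 3 samples, 1 from each arm. Probe set 93875_at of Hspa1a read 3521, 167 and 148 in the Sox1-positive samples of days 3, 4 and 5. The other aggregate samples gave 299 on day 1, 275 in the day 2 E-cadherin-negative and 323 in the E-cadherin-positive sample, and 1254 in the day 3 Sox1-negative sample. The 3 ES samples gave 1948, 168 and 244. The day 3 Sox1-positive, day 3 Sox1-negative and ES 1 samples were thus the high ones, at 21.1, 3.88 and 7.98 times the next highest sample of their own arm. Hspa1b (100946_at) read 1568, 166 and 61.1 in Sox1-positive cells, 441, 210, 248 and 1064 in the other aggregate samples, and 2063, 292 and 295 in ES cells. The same 3 samples led, at 9.44, 2.41 and 7.0 times the next highest of their arm. A second, dim probe set of Hspa1a (167374_f_at, under the signal filter) picked out the same samples, with 330, 251 and 317 against 6 to 21 in the other 7.

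**Figure D1:**
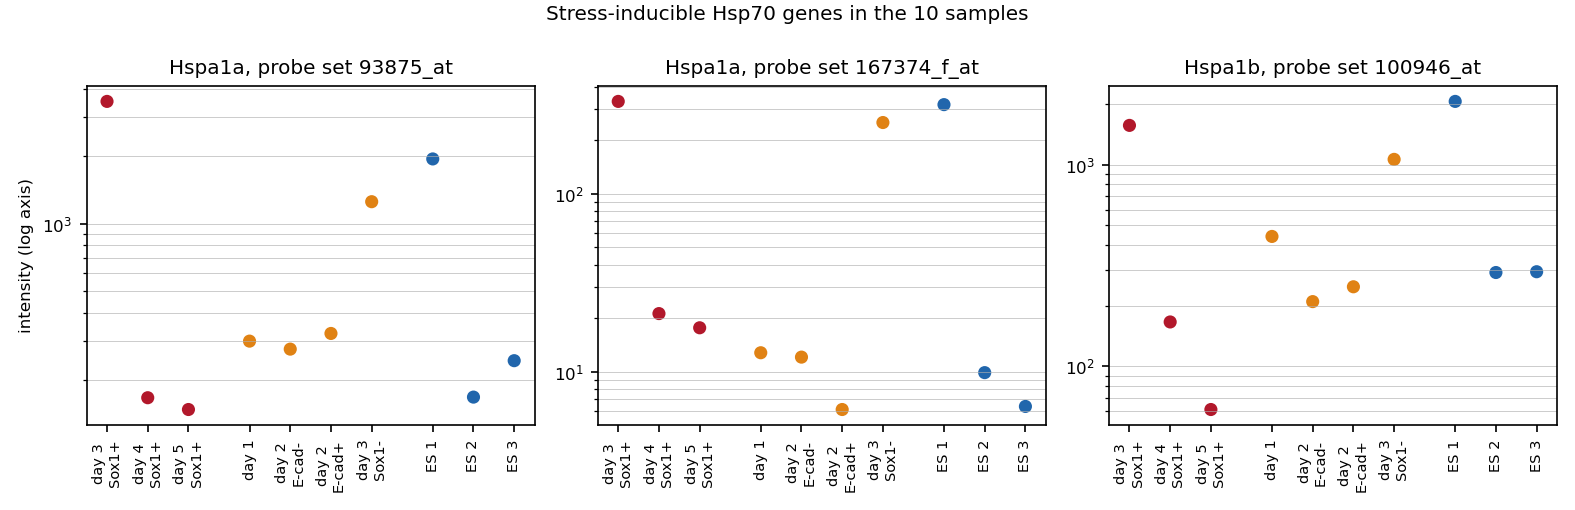
Intensity (log axis) of the Hspa1a and Hspa1b probe sets in each of the 10 samples; each point is 1 sample, with Sox1-positive samples in red, other aggregate samples in orange and ES samples in blue. In all 3 panels the day 3 Sox1-positive, day 3 Sox1-negative and ES 1 samples lie above the other 7.

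The high samples fell in every arm, and neither gene was called between Sox1-positive and ES cells. The log2 difference of Hspa1a was 0.06 ± 1.27 (SE; limma adjusted p 0.986) and that of Hspa1b -1.05 ± 1.12 (limma adjusted p 0.634). A single sample decides these values: without the day 3 Sox1-positive sample they were -1.39 and -2.30, and without ES 1 they were 1.11 and -0.14 (limma adjusted p 0.152 or more in all 4). The lowest actin ratios over the 3 chips were 0.993 in the day 3 Sox1-positive, 0.939 in the day 3 Sox1-negative and 0.996 in the ES 1 sample, under those of the other 7, which were 1.10 or more. This did not hold on every chip. On U74Bv2 the day 3 Sox1-negative sample had 1.14, above the 1.11 of the day 2 E-cadherin-positive sample. The part of the actin ratio in the result was not tested. Other stress genes are given here by their highest sample, which differed even between Hspa1a (day 3 Sox1-positive) and Hspa1b (ES 1). A shared stress response was not tested. Dnajb1, the J-domain partner of inducible Hsp70, was highest on day 4 (986 in that Sox1-positive sample, against 594 and 493 in the other 2 Sox1-positive samples, 586 to 732 in the other aggregate samples and 424 to 500 in ES cells). Hsph1, the inducible Hsp110, was highest in ES 3 (2960). Bag3, an exchange factor and partner of small heat shock proteins, was highest in the day 3 Sox1-negative sample (839), and the stress transcription factor Atf3 in the day 3 Sox1-positive sample (314). The highest samples of Bag3 and Atf3 are among the 3 that were high for Hspa1a and Hspa1b, and those of Dnajb1 and Hsph1 are not.

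The Sox1-positive arm was set against ES cells to ask which chaperones differ between sorted neuroectoderm and its starting cells. Most members stayed close to the ES level: 53 of the 75 that passed the signal filter (a mean intensity at or over the 30th percentile of the chip) were within 0.5 on the log2 scale, 70.7% against 64.6% of all 12934 genes tested. Dnajb7, Hspb9 and Dnajc22 did not pass the filter. At a limma adjusted p under 0.05, 4 members were higher (5.33%), against 6.4% of all genes tested. The 4 include Hspb11, which passed the signal filter only through its Sox1-positive values, so its call adds no support. Another 6 members were lower (8%), against 6.17% of all genes. These shares are near the background. At an unadjusted p under 0.05 the counts of members were 5 higher and 14 lower of 75, against 13.8% and 14% of all genes tested. In bulk samples, fewer cells of a type and less RNA per cell cannot be told apart.

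In each of the 10 called members the Sox1-positive and ES samples did not overlap. This adds no support to the calls, which were made from the same values. Over all tested members 6 were higher without overlap (8%), against 16.9% of all genes, and 16 were lower without overlap (21.3%), against 18.2%. The 6 include Hspb11, with the same limit on its filter. The median difference was -0.14 over the 75 members and -0.01 over all genes tested. By sample, the members' median stood at 0.03, -0.05 and -0.22 from the ES mean on days 3, 4 and 5, with 47 cytosolic members at 0.03, -0.10 and -0.35. The 14 ER members stood at 0.18, 0.20 and -0.06, and the 9 mitochondrial ones at -0.04, 0.01 and -0.15. Each day is 1 sample. The actin ratio of day 5 was 1.33 to 1.44, and its part was not tested.

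The 4 higher members had different roles. Hspb11, the ciliary transport protein, read 227, 302 and 245 in Sox1-positive cells, 80.1 on day 1, 128 and 26.0 in the E-cadherin-negative and E-cadherin-positive sorts of day 2, 130 in the day 3 Sox1-negative sample, and 28.7, 22.1 and 49.3 in ES cells. All 3 Sox1-positive values exceeded all 7 others, and the fitted log2 difference from ES cells was 2.50 ± 0.24 (SE). Hspb11 passed the filter only through the Sox1-positive values: the other 7 samples averaged 66.4, under the filter level of 78.6 on its chip. Its call is therefore given as a description, and the size of the difference is uncertain because every ES value lay below that level. No other tested member depended on a single arm in this way. Dnajc18, an ER-membrane J-domain protein, read 406, 534 and 589 in Sox1-positive cells, 189, 308, 338 and 81.5 in the other aggregate samples, and 139, 252 and 237 in ES cells. Sox1-positive cells again lay above all others, by 1.25 on the log2 scale over ES cells (limma adjusted p 0.0248). A second tested probe set of Dnajc18 (106860_at) differed by 0.44 and was not called (limma adjusted p 0.636).

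Dnajb4, a cytosolic J-domain protein related to Dnajb1, read 697, 1068 and 1267 in Sox1-positive cells, 294, 843, 430 and 380 in the other aggregate samples, and 445, 499 and 533 in ES cells. The day 2 E-cadherin-negative sample (843) overlapped the Sox1-positive range, the ES samples did not, and the log2 difference from ES cells was 0.98 (limma adjusted p 0.0465). Dnajc9, a J-domain protein that chaperones histones, read 2285, 2598 and 2870 in Sox1-positive cells, 2103, 1951, 1890 and 1442 in the other aggregate samples, and 1648, 1535 and 1506 in ES cells. Its Sox1-positive values exceeded the other 7, with a log2 difference from ES cells of 0.71 (limma adjusted p 0.0345).

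Of the 6 lower members, Dnajc21 and Hspb8 differed most. Dnajc21, which acts in maturation of the large ribosomal subunit, read 610, 473 and 449 in Sox1-positive cells, 928, 565, 899 and 1075 in the other aggregate samples, and 1445, 1531 and 1132 in ES cells. The other aggregate samples lay below every ES sample, and the day 2 E-cadherin-negative sample fell within the Sox1-positive range. The log2 difference between Sox1-positive and ES cells was -1.40 ± 0.21 (SE; limma adjusted p 0.00693). Hspb8, a small heat shock protein that works with Bag3 in selective autophagy, read 236, 206 and 142 in Sox1-positive cells, 295, 242, 413 and 621 in the other aggregate samples, and 532, 499 and 489 in ES cells. Every Sox1-positive value was below the other 7, and the log2 difference from ES cells was -1.34 ± 0.21 (SE; limma adjusted p 0.00721). Bag3 differed from ES cells by -0.26 and was not called (limma adjusted p 0.718).

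The mitochondrial Hsp70 and its J-domain partner were lower together. Hspa9 (mortalin), the matrix Hsp70 that pulls imported proteins inward, read 3832, 3394 and 3451 in Sox1-positive cells, 4924, 3514, 5282 and 5463 in the other aggregate samples, and 5327, 5186 and 6651 in ES cells. The log2 difference was -0.68 (limma adjusted p 0.0487), and 2 dimmer probe sets of Hspa9 were not called, at -0.19 and -0.53. Dnaja3 (Tid1), a J-domain partner of Hspa9, read 932, 1051 and 769 in Sox1-positive cells, 1424, 1172, 1081 and 1127 in the other aggregate samples, and 1437, 1647 and 1450 in ES cells, a log2 difference of -0.72 (limma adjusted p 0.0442). For both genes no Sox1-positive value reached the lowest ES value. Of 16 alternatives, Hspa9 kept its call in 4 and Dnaja3 in 7, and both lost it whichever single sample was left out.

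Dnajc2, a J-domain protein of the ribosome and of chromatin, read 1388, 1509 and 1220 in Sox1-positive cells, 1854, 1345, 1721 and 1880 in the other aggregate samples, and 1991, 2293 and 2216 in ES cells. The log2 difference was -0.66 (limma adjusted p 0.0482), and a second bright probe set (101890_f_at) gave -0.54 without a call (limma adjusted p 0.107). Hspa2, an Hsp70 needed in the testis, read 176, 252 and 212 in Sox1-positive cells, 335, 290, 332 and 392 in the other aggregate samples, and 419, 339 and 487 in ES cells. All its Sox1-positive values were the lowest of the 10, with a log2 difference from ES cells of -0.91 (limma adjusted p 0.0382).

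**Figure D2:**
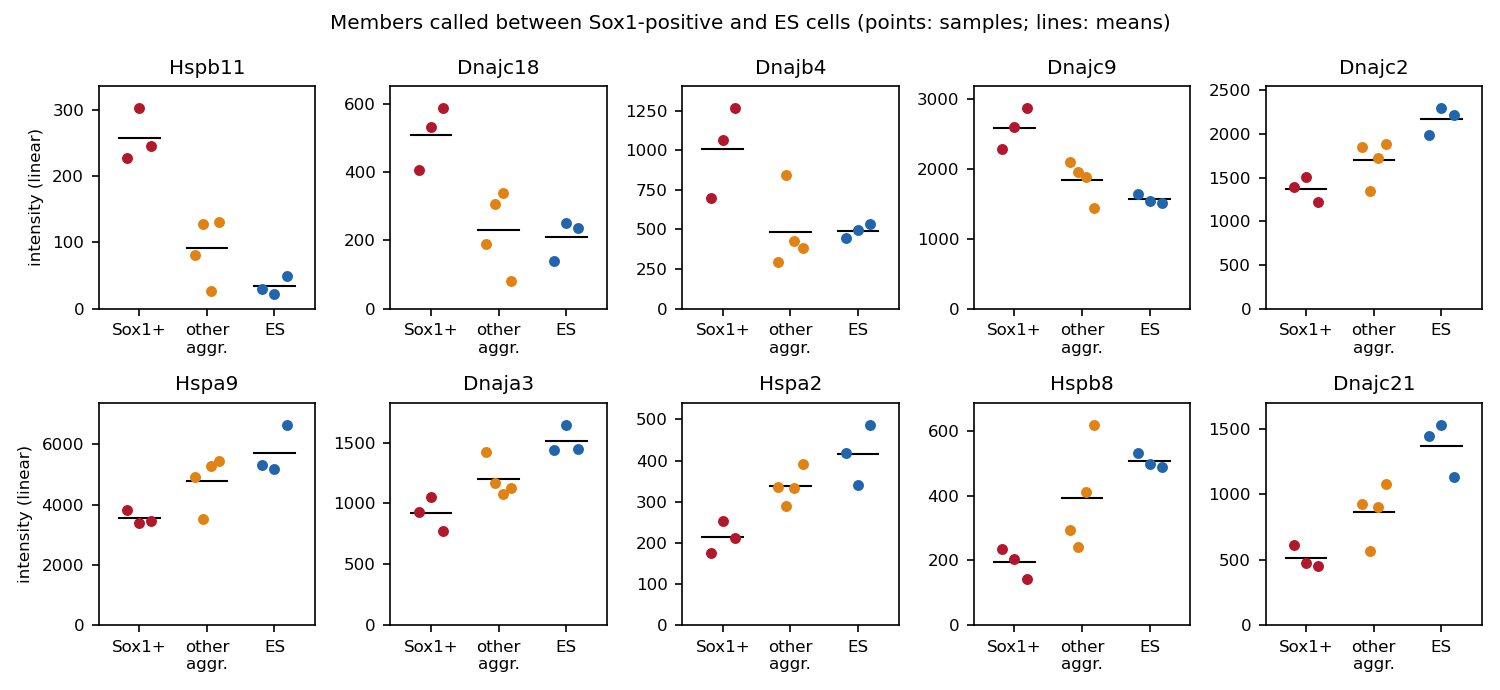
Intensity (linear axis from 0) of the 10 members called between Sox1-positive and ES cells; points are samples and lines are the arm means (3 Sox1-positive, 4 other aggregate and 3 ES samples). The Sox1-positive points lie clear of the ES points in every panel, and the members were chosen by a test on these same values.

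Dnajc21 and Hspb8 were called whichever single sample was left out. So was Hspb11, which is no sign of stability, as it passed the filter only through its Sox1-positive values. The other 7 were not: without day 4, day 5, ES 2 or ES 3 only those 3 members were called, without day 3 there were 6 calls, and without ES 1 there were 5, among them Hsp90aa1. Calls over all 25690 tested probe sets fell as well, from 2710 to 1290 without day 4 and 1843 without day 5. They were 1233 without ES 2, 1681 without ES 3, 2026 without day 3 and 2162 without ES 1. The loss of calls is therefore not particular to the members. The log2 difference of each of the 7 kept its sign in every alternative that tested it. In the fits that lost the call through 1 missing sample the limma adjusted p went no higher than 0.153. With the mean over a gene's probe sets only Dnaja3 and Dnajc21 of the 10 were called, and Dnajb4, Hspb11 and Hspb8 fell under the filter.

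By compartment the cytosolic members had a median log2 difference of -0.16 (47 tested), the mitochondrial ones of -0.14 (9) and the ER ones of 0.13 (14), beside -0.01 over all genes. Among the cytosolic members 2 were called higher (Dnajb4 and Dnajc9) and 4 lower (Dnajc2, Dnajc21, Hspa2 and Hspb8). In the ER 1 was called higher (Dnajc18) and none lower. In the mitochondrion none was called higher and 2 lower (Hspa9 and Dnaja3). These counts stand beside the 6.4% of all genes called higher and 6.17% called lower, and no test between the compartments was run. Within 0.5 of the ES level were 33 of 47 cytosolic, 12 of 14 ER and 7 of 9 mitochondrial members, against 64.6% of all genes.

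**Figure D3:**
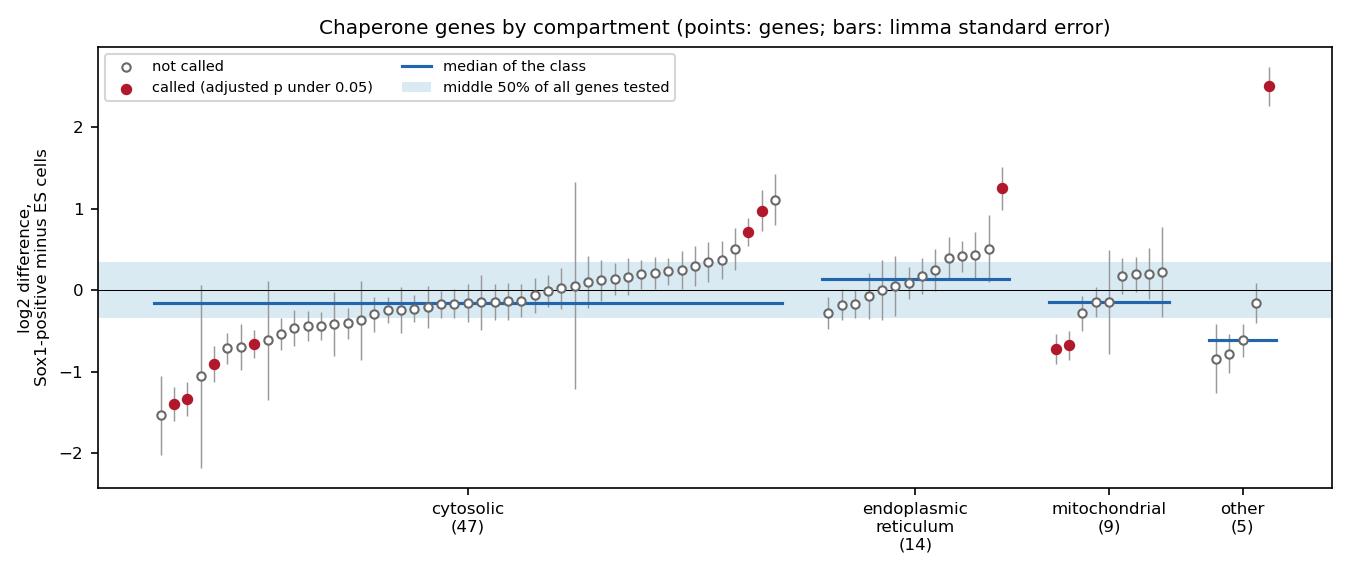
Log2 difference of Sox1-positive minus ES cells for each of the 75 tested members, sorted within compartments; points are genes, bars are limma standard errors, blue lines are class medians and the band holds the middle 50% of all genes tested. Called genes (filled) lie near both ends of the cytosolic group, at the top of the ER group and at the bottom of the mitochondrial group.

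Among the cytosolic Hsp70 and Hsp110 members, constitutive Hspa8 read 8095, 6688 and 5247 in Sox1-positive cells, 7077, 7059, 10640 and 8327 in the other aggregate samples, and 9010, 6465 and 6513 in ES cells. The arms overlapped, with a log2 difference from ES cells of -0.14 (limma adjusted p 0.774). Hsph1 averaged 2002 ± 198 in Sox1-positive and 2731 ± 375 in ES cells (SD, n = 3 each), without overlap but short of a call (-0.44, limma adjusted p 0.187). Hspa4l, an Hsp110 protein, had the largest positive difference that was not called: 433, 459 and 790 in Sox1-positive cells, 490, 596, 450 and 203 in the other aggregate samples, and 254, 203 and 273 in ES cells, a log2 difference of 1.11 (limma adjusted p 0.0716).

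Cytosolic Hsp90 missed the threshold narrowly. Hsp90aa1, the inducible Hsp90, read 11504, 9029 and 9880 in Sox1-positive cells, 11550, 11118, 15866 and 14174 in the other aggregate samples, and 13752, 18054 and 18276 in ES cells. No Sox1-positive value reached an ES value, and the log2 difference was -0.71 ± 0.19 (SE; limma adjusted p 0.0545). It passed in 7 of 16 alternatives, among them quantile normalization and the fit without ES 1. Over the 16 the log2 difference ran from -0.85 to -0.31 and the limma adjusted p from 0.0193 to 0.255.

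Of the small heat shock proteins, which vary most as a class (a median range of 2.06 on the log2 scale over the 10 samples, for 6 members), Hspb8 alone was called. Hspb1 (Hsp27) read 579, 514 and 129 in Sox1-positive cells, 380, 767, 683 and 413 in the other aggregate samples, and 859, 828 and 207 in ES cells. Its lowest values were those of day 5 and ES 3, the samples with the highest actin ratios, whose part was not tested; the log2 difference was -0.62 (limma adjusted p 0.676). Hspb2, a muscle form, read 649, 705 and 205 in Sox1-positive cells, 730, 904, 1195 and 1383 in the other aggregate samples, and 1084, 1569 and 1452 in ES cells. Here too day 5 was lowest, and a difference of -1.53 was not called (limma adjusted p 0.0987).

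No Cct gene passed the test with its kept probe set. The 8 members of the chaperonin ring (Cct2, Cct3, Cct4, Cct5, Cct6a, Cct6b, Cct7 and Cct8) had log2 differences between -0.54 (Cct6a) and 0.12 (Cct4) and a median of -0.22. Cct6a read 1741, 1216 and 1280 in Sox1-positive cells against 2022, 1987 and 2091 in ES cells, without overlap (limma adjusted p 0.123), and the other aggregate samples, at 1295 to 1528, were as low. Cct5, whose arms also did not overlap, averaged 6724 ± 555 in Sox1-positive and 7946 ± 270 in ES cells (SD, n = 3 each; -0.24, limma adjusted p 0.418). Tcp1, the ring subunit whose symbol keeps it out of the members, differed by 0.11. Cct8l1, a chaperonin-like gene outside the ring, differed by -0.16 (limma adjusted p 0.757).

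Hspa5 (BiP), the ER Hsp70, read 3410, 3056 and 3184 in Sox1-positive cells, 2978, 3272, 3687 and 3618 in the other aggregate samples, and 3690, 2484 and 3005 in ES cells. These values overlapped throughout, with a log2 difference of 0.09 between Sox1-positive and ES cells (limma adjusted p 0.838). Hsp90b1 (Grp94), the ER Hsp90, read 3957, 3497 and 2828 in Sox1-positive and 3589, 3914 and 4030 in ES cells, a difference of -0.18 (limma adjusted p 0.631). Dnajc3 (p58IPK), an ER co-chaperone that also restrains the kinase Eif2ak3, read 217, 361 and 253 in Sox1-positive and 307, 396 and 144 in ES cells, a difference of 0.05 (limma adjusted p 0.957). None of the 3 members with the ER stress response element in its window was called, beside 6.4% of all genes called higher and 6.17% lower. With 3 genes this says nothing about the element. Dnajb9 (ERdj4), a BiP co-chaperone, differed by 0.43 (limma adjusted p 0.419). Dnajc10 (ERdj5), an ER reductase, averaged 1854 ± 266 in Sox1-positive, 1401 ± 96.4 in the other aggregate and 1382 ± 135 in ES cells (SD, n = 3, 4 and 3), above ES without overlap but not called (0.41, limma adjusted p 0.214).

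The mitochondrial chaperonin pair was not called. Hspd1 (Hsp60) read 7448, 5297 and 7243 in Sox1-positive cells, 9038, 4461, 8967 and 12821 in the other aggregate samples, and 6861, 7924 and 9516 in ES cells. Its co-chaperonin Hspe1 (Hsp10) read 4878, 4636 and 3785 in Sox1-positive cells, 6330, 4948, 5192 and 5322 in the other aggregate samples, and 4642, 5521 and 4518 in ES cells. The arms overlapped for both, with log2 differences from ES cells of -0.28 and -0.14 (limma adjusted p 0.474 and 0.7). The 2 genes share a promoter stretch, yet the lowest and highest of the 10 samples differed by 1.52 for Hspd1 and 0.74 for Hspe1.

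Probe sets of 1 gene did not always move alike, in genes singled out after their values were seen. Hspa4, an Hsp110 exchange factor, was kept as 96594_at, which read 5276, 4837 and 4330 in Sox1-positive and 3938, 3998 and 4345 in ES cells (0.23, limma adjusted p 0.464). Another of its probe sets, 100353_g_at, read 1431, 1284 and 1059 in Sox1-positive and 3683, 2609 and 2449 in ES cells, a difference of -1.19 (limma adjusted p 0.0133). With 161745_f_at at -1.12 (limma adjusted p 0.0417), 2 of the 5 tested probe sets of Hspa4 were called lower and the brightest pointed upward. Cct4 was called higher by 115988_at (1.08, limma adjusted p 0.0107) and not by the kept 101011_at (0.12). All 3 tested probe sets of Hspa4l pointed upward, and 99489_at was called (1.21, limma adjusted p 0.0209). For Dnajc21 a second probe set was called as well (93478_at, -1.12, limma adjusted p 0.0298). Hspb2 was called lower by 103215_g_at (-0.72, limma adjusted p 0.0368).

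**Figure D4:**
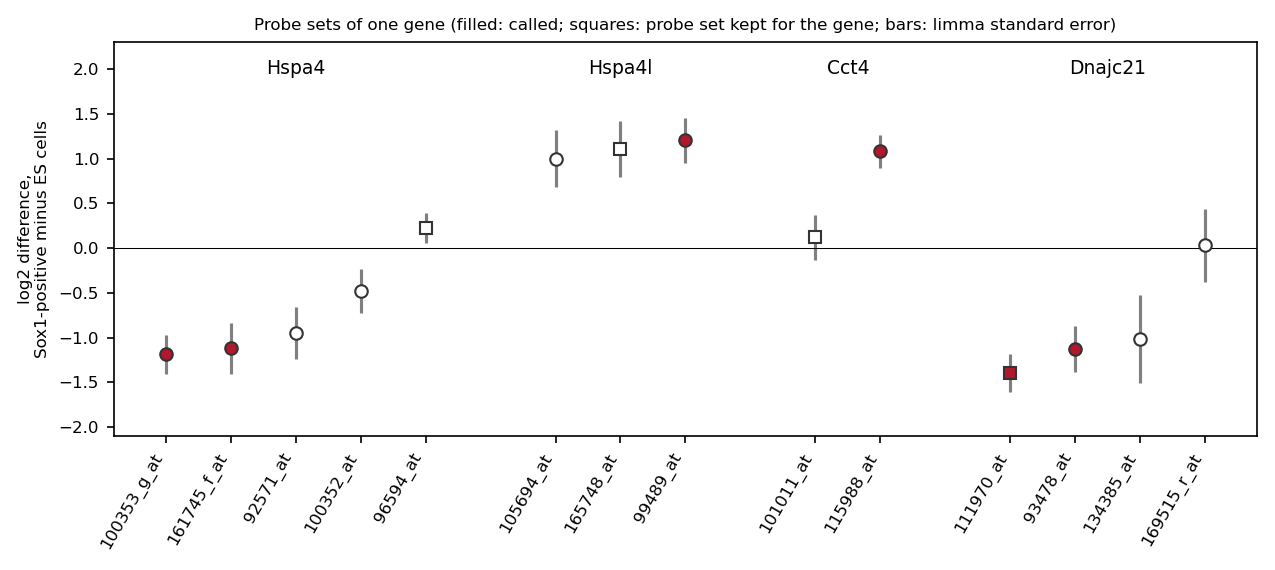
Log2 difference of Sox1-positive minus ES cells for every tested probe set of Hspa4, Hspa4l, Cct4 and Dnajc21; squares are the probe sets kept for the gene, filled symbols are called and bars are limma standard errors. The probe sets of Hspa4 span -1.19 to 0.23, while those of Hspa4l all lie near 1.

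The other aggregate samples were compared with the same 3 ES samples. No member was called (limma), against 0.00773% of all genes called higher and 0.0232% lower, 1 and 3 genes. At an unadjusted p under 0.05, 3 members were higher and 3 lower of 75, against 5.04% and 4.99% of all genes. The median was 0.02, and 67 of 75 members (89.3%) lay within 0.5 of the ES level, against 82.6% of all genes. Hspb11 differed by 1.0 (limma adjusted p 0.454) and Dnajc21 by -0.68 (limma adjusted p 0.415). These 4 samples differ in day and sort, which widens their spread.

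Between Sox1-positive and other aggregate samples no member was called either (limma), against 0.611% of all genes called higher and 1.14% lower. At an unadjusted p under 0.05 there were 6 of 75 each way (8%), against 11% of all genes each way. Without the day 2 E-cadherin-negative sample Hspb11 (1.70) and Dnajb4 (1.39) were called higher and Dnajc21 (-0.91) lower (limma adjusted p 0.0394, 0.0198 and 0.0304), for Hspb11 with the limit on its filter given above. Of all alternatives for this comparison, no other called a member. The share of all genes called without that sample is not given here, so these 3 calls cannot be set against a background. With all 4 samples Hspb11 came nearest, averaging 258 ± 39.5 (SD, n = 3) in Sox1-positive and 91.1 ± 49.2 (n = 4) in the other aggregate samples, a log2 difference of 1.5 (limma adjusted p 0.0896). The median over the members was -0.19, beside -0.03 over all genes.

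The sorts of a single day have 1 sample on each side and no test. On day 2, 1 member was higher by 1 or more on the log2 scale in E-cadherin-negative than in E-cadherin-positive cells, against 6.95% of all genes, and 2 were lower, against 4.77%. The higher member was Hspb11 (128 against 26.0, a difference of 1.78), in a range below the filter level of its chip on the E-cadherin-positive side. Among members whose higher value reached the median of its chip Dnajb4 (843 against 430, 0.95), Dnajc25 (1894 against 983, 0.94) and Hspa1l, a testis Hsp70 (286 against 177, 0.65), led. By the same measure the lowest were Hspb3, a muscle small heat shock protein (116 against 261, -1.06), Hspd1 (4461 against 8967, -1.0) and Hspbap1 (1490 against 2941, -0.97).

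On day 3, 6 members were higher by 1 or more in Sox1-positive than in Sox1-negative cells, against 6.85% of all genes, and 5 were lower, against 7.33%. Dnajc18 (406 against 81.5, 2.11), Hspa1a (3521 against 1254, 1.48) and Hspb3 (294 against 103, 1.38) led among members whose higher value reached the median of its chip. The Sox1-negative value of Dnajc18 lay below the filter level of its chip (117) and that of Hspb3 next to its own (102), so these sizes are uncertain. The other members past 1 were Dnajb12 (1050 against 394, 1.38), Dnajc24 (616 against 258, 1.20) and Hspa4l (433 against 203, 1.04). For Hspa1a both samples are among the 3 high ones. By the same measure the lowest were Hspb8 (236 against 621, -1.33), Dnajb13, a J-domain protein of sperm and cilia (141 against 373, -1.31), and Hspa2 (176 against 392, -1.08), and Hspb2 (-1.07) was next. Dnajc12 (53.9 against 147, -1.22) was also past -1 but stayed under the median of its chip in both samples. Hspb3 stood low in the sort of day 2 and high in that of day 3.

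Over all 10 samples the members had a median range of 0.985 on the log2 scale, beside 1.14 for all genes tested. The range was under 1 in 39 members and 2 or more in 11. By class the medians were 0.857 in the ER, 0.934 for the Cct genes, 0.944 for cytosolic J-domain proteins, 1.02 for cytosolic Hsp70 and Hsp110 (11 genes, without Hspbp1) and 1.08 in the mitochondrion.

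Genes that work with the chaperones were taken from lists, and most were not called between Sox1-positive and ES cells. Of 30 cytosolic partners 2 were higher and 2 lower, with a median of -0.15. The Hsp70 cofactor Bag2 was higher by 0.83 (limma adjusted p 0.0291), and the heat shock factor binding protein Hsbp1 by 0.81 (limma adjusted p 0.0324). The Hsp90 cofactors Cdc37l1 (587, 673 and 627 in Sox1-positive against 1812, 1215 and 1548 in ES cells, -1.24) and Sugt1 (-0.86) were lower (limma adjusted p 0.0102 and 0.0244).

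Of 32 genes of ER folding and the unfolded protein response 2 were higher and 3 lower, with a median of -0.0046. The collagen chaperone Serpinh1 (Hsp47), which resides in the ER, read 2244, 2508 and 1979 in Sox1-positive and 410, 1035 and 1081 in ES cells (1.51, limma adjusted p 0.0327). Herpud1, of ER-associated degradation, was higher by 1.10 (limma adjusted p 0.0183). Trib3 (-1.21, limma adjusted p 0.0184) and asparagine synthetase Asns (-1.06, limma adjusted p 0.0127), targets of the amino acid branch of stress signalling, and the ER stress kinase Eif2ak3 (-0.76, limma adjusted p 0.0399) were lower. Of 18 genes of mitochondrial folding and proteolysis the protease Clpp was the only call, with a log2 difference of -1.0 (limma adjusted p 0.0182). Of 15 immediate early genes, which respond to handling among other stimuli, Fos was higher by 1.99, Egr2 by 1.57 and Fosb by 1.19 (limma adjusted p 0.0177, 0.0112 and 0.0254), and Ier3 was lower (-0.86, limma adjusted p 0.0441). The summed intensity of that list was 17110 to 21757 in Sox1-positive, 19557 to 33360 in the other aggregate and 18986 to 22128 in ES samples, and its part in the chaperone values was not tested.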

How the data were processed

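RNA of 10 samples was measured as biotin-labelled cRNA on 3 Affymetrix chips. The deposited value was 1 linear intensity per probe set, already scaled (the 2% trimmed mean of every array was 500.108 to 500.281). The sources used here do not give the software or the background correction. Of 36899 probe sets 198 controls were left out, and in the platform's annotation 29131 had 1 gene name, 6846 had none and 724 had more. Intensities were analysed as log2(intensity + 16) with limma 3.58.1 (R 4.3.3; lmFit, eBayes) on each chip, for probe sets at or over its 30th percentile (25690 in all), with Benjamini-Hochberg adjustment over the 3 chips. Each gene was given by its probe set with the highest mean log2 value. The fits were tested on simulated data in which every arm had the spread of the ES samples. Spread across days and sorts was not simulated, so this does not test the fits for it. The members and gene lists were chosen with earlier results of these data known, and Serpinh1 was set with the ER list after values were seen. Named were the main chaperones, all calls, the 5 largest differences each way against ES cells, 3 each way between sorts and 2 called each way per list; other names were chosen after their values were seen. Promoters are RefSeq's (GRCm38.p6), which held 65 of 78 members. Alternatives were other normalizations, pseudocounts, filters, priors, probe-set rules and left-out samples. Figures used matplotlib 3.10.9.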

Additional observations from a re-analysis of the deposited data

Results flagged for a closer look

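Dnaja1, a cytosolic J-domain partner of Hsp70, stood on opposite sides of the ES mean in the 2 aggregate arms. It read 3337, 3250 and 3751 in Sox1-positive cells and 2459, 2555, 2630 and 2595 in the other aggregate samples, with 2734, 3443 and 2866 in ES cells. The log2 difference between the aggregate arms was 0.424, which limma did not call (adjusted p 0.163). The 2 arms did not overlap, which adds no support, because the gene was flagged from these same values. Neither arm was called against ES cells, at 0.20 for Sox1-positive and -0.23 for the other aggregate samples (limma adjusted p 0.562 and 0.667).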

How the results depend on the processing

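Between Sox1-positive and ES cells, 4 members were called higher and 6 lower. Hspb11, which passed the filter only through its Sox1-positive values, is counted among the 4. Calls higher were 2 with no filter, 2 with all 3 arms in 1 fit, 1 without ES 3 and day 5, and 1 (Hspa4l) with the mean over a gene's probe sets, and calls lower were 2 with no filter, 2 without ES 3 and day 5, and 3 where the pseudocount was 1. The mean over probe sets called 5 lower, of which Dnaja3 and Dnajc21 are shared with the 10 and Dnajb6, Hspb2 and Hspbap1 are not. Over all probe sets, 2710 were called in the main fit, 2098 with no filter and 2627 with all 3 arms in 1 fit. There were 1055 without ES 3 and day 5 and 2503 where the pseudocount was 1, and 1650 genes with the mean over probe sets. Leaving out each sample in turn gave 1 to 4 higher and 2 to 3 lower, with 1233 to 2162 of all probe sets called. Between Sox1-positive and other aggregate samples the left-out fits gave 0 to 2 members higher and 0 to 1 lower, and between other aggregate samples and ES cells 0. On day 2 the threshold of 2 on the log2 scale left 0 higher and 0 lower, a pseudocount of 64 left 0 lower and quantile normalization 1. On day 3 the threshold of 2 left 1 higher and 0 lower, and a pseudocount of 64 left 3 lower. No result changed sign past a threshold, and the causes of these shifts were not tested. Hspb11 was not tested with the filter at the 60th percentile or with the mean over probe sets. Dnajc18 and Hspa2 were not tested with that filter, and Dnajb4 and Hspb8 not with the mean over probe sets. No paired analysis was possible because the groups share no replicate number beyond 1. Signal near background limits Hspb11 in ES cells.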
